A study of Mus musculus with 19 samples.

Results

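Aminoacyl-tRNA synthetases are the enzymes that join each amino acid to its matching tRNA, the step that fixes the genetic code before the ribosome is reached. Their mRNA was followed in epididymal white adipose tissue (eWAT) of mice kept for 17 weeks on 1 of 4 diets. The 36 genes described here were taken by symbol from the 24237 genes used of the deposited table. They comprise 20 enzymes of the cytosol and 16 enzymes of the mitochondrion, whose symbols end in 2. All 36 passed the filter on low values, 35 of them in each of the 4 diet groups and Mars2 through the LowMg-HFD mice only.

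The mice were adult male C57Bl6/J and differed in diet alone. Diets were low in fat (LFD) or high in fat (HFD), and each came with a normal (NormMg) or a low (LowMg) content of Mg2+, so that the groups are NormMg-LFD (n = 4, replicates 2 to 5), LowMg-LFD (n = 5), NormMg-HFD (n = 5) and LowMg-HFD (n = 5), with 1 library per mouse. The comparisons ask how fat and Mg2+ in the diet, and their combination, act on gene expression in fat tissue. Values are FPKM, that is, read numbers divided by transcript length and library depth, so that levels can be compared between genes as well as between mice.

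Each cytosolic synthetase serves the tRNAs that decode nuclear mRNAs. In mammals 8 of the listed enzymes (Dars, Eprs, Iars, Kars, Lars, Mars, Qars and Rars) are held together in the multisynthetase complex, on the scaffold proteins encoded by Aimp1, Aimp2 and Eef1e1, while the other 12 act outside it. The mitochondrial enzymes are also made from nuclear genes and are imported to charge the tRNAs of the mitochondrial genome, which encodes subunits of the respiratory chain. Gars and Kars supply both compartments from 1 gene each. Mitochondrial glutaminyl-tRNA is made without a glutaminyl enzyme, by Ears2 and an amidotransferase (Qrsl1, Gatb and Gatc). Many cytosolic synthetase genes are known targets of ATF4, the transcription factor of the integrated stress response, which is turned on when the kinases of the eIF2 alpha subunit sense amino acid shortage, stress of the endoplasmic reticulum or other strain, and which binds the C/EBP-ATF response element.

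The core of that element, TGATGNAA, was looked for on both strands in the RefSeq promoters (GRCm38.p6) of the members, from 250 bases before to 50 bases after the start. Of the 36 genes, 27 had an entry, and Lars, Rars, Cars, Hars, Nars, Vars, Wars, Hars2 and Pars2 had none. A match was present in 5 of the 27, namely Yars, Gars, Aars, Iars and Tars, against 1219 of 27025 genes with a promoter entry (4.51%), or 3.97% of all 32851 windows of this length. All 5 are cytosolic, which makes 5 of 13 cytosolic and 0 of 14 mitochondrial genes scanned. Among the 9 genes that rose on the HFD at normal Mg2+, Yars, Gars, Iars and Tars held a match and Sars held none. Of the other 4, Cars and Rars had no entry, and Nars and Hars were not scanned. Aars held 2 matches and did not pass the test in any comparison.

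The promoters with a match are shown from 120 bases before to 30 bases after the start, 5′ to 3′ on the strand of the gene, because they are the only sequences in which the element was found. The match is in capitals, and reads TTNCATCA where the element lies on the opposite strand. The runs lie at chr4:129189783-129189932 (plus strand) for Yars, chr6:55037881-55038030 (plus strand) for Gars, chr13:49682010-49682159 (plus strand) for Iars, chr15:11399629-11399778 (minus strand) for Tars and chr8:111033722-111033871 (plus strand) for Aars. Iars2, at chr1:185329372-185329521 (minus strand), is the mitochondrial gene that fell on the HFD and is shown as a promoter without a match.
Yars: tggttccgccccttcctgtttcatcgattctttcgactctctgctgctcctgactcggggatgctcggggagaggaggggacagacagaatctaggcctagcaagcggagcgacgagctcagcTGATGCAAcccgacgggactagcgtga
Gars: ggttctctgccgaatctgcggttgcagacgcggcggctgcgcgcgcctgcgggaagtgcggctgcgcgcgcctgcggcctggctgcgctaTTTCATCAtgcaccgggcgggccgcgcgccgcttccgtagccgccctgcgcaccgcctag
Iars: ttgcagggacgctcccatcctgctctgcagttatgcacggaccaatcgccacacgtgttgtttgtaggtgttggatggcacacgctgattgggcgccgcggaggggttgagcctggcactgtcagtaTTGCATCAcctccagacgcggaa
Tars: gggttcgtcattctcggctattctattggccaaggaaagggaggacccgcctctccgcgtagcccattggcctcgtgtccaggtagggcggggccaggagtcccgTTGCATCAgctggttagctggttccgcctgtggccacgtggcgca
Aars: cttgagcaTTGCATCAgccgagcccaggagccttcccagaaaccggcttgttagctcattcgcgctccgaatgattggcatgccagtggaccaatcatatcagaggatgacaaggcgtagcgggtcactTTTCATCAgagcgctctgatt
Iars2: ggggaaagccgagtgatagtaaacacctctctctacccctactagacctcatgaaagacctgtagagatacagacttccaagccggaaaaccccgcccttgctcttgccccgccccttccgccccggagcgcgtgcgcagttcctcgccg
Counted from the start of transcription, the first base of the match lay at position 4 in Yars, at 8 in Iars, at -15 in Tars, at -30 in Gars and at -112 and 10 in Aars. A match describes these letters only and does not show binding.

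Before the levels, the libraries were checked against their labels. Adipocyte markers (10 genes, among them Adipoq, Plin1 and Fabp4) summed to between 12960.3 and 28510.3 FPKM in every mouse, so that the tissue was adipose by its defining genes, while no gene particular to the epididymal depot was checked. The other check was for RNA of neighbouring organs, and here 3 libraries stood apart. NormMg-LFD replicate 3 had a summed level of 16 exocrine pancreas markers of 1975.9 FPKM, against at most 62.0 FPKM in the other mice. LowMg-HFD replicate 4 had 2909.3 FPKM over 5 testis markers (Prm1, Prm2, Tnp1, Tnp2 and Akap4), against at most 653.8 FPKM in the other mice. Testis markers were also raised in NormMg-LFD replicates 5 (653.8 FPKM) and 4 (266.2 FPKM) and LowMg-LFD replicate 1 (154.3 FPKM), with sums from 0.8 to 43.0 FPKM in the remaining mice. LowMg-LFD replicate 4 had 106.8 FPKM over 3 epididymis markers (Crisp1, Lcn5 and Lcn8), against at most 1.1 FPKM. The methods of the study state that a LowMg-HFD sample was left out for pancreatic tissue and do not name it. In these files the pancreas markers summed to at most 51.4 FPKM in each LowMg-HFD mouse, and all 19 mice were kept. Without the first 2 of these libraries the number of cytosolic genes called was 9 for the HFD at normal Mg2+ and 5 for low Mg2+ on the HFD, the same as with them, while the calls of Iars2 on low Mg2+ and of Cars in the interaction, described in their place, were lost. Without NormMg-LFD replicate 4 or replicate 5 alone the count for the HFD at normal Mg2+ was 8. Without LowMg-LFD replicate 4 alone the counts were 9 and 4, and the calls of Farsb on low Mg2+ and of Cars in the interaction were lost. In bulk tissue, a change in the number of cells of a type and a change in RNA per cell cannot be told apart.

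The synthetase mRNAs covered a wide range of levels. Averaged over the 4 diets, Cars, which charges cysteine, was the most abundant at 147 FPKM, followed by the mitochondrial leucine enzyme Lars2 at 128 FPKM. Sars (49.5 FPKM), Qars (44.0 FPKM) and Nars (38.9 FPKM), the serine, glutamine and asparagine enzymes, came next, and the methionine enzyme of the mitochondrion, Mars2, was the lowest at 1.06 FPKM. The median over the cytosolic genes was 22.9 FPKM, with a range from 10.6 FPKM for Iars to Cars, and it was 24.3 FPKM for the genes of the multisynthetase complex. The median over the mitochondrial genes was 9.19 FPKM, and without Lars2 the highest of them was Iars2 at 24.4 FPKM.

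Neighbours in this order overlapped between mice, with 1 exception. Cars ranged from 96.4 to 288 FPKM over the 19 mice and Lars2 from 77.6 to 277.5 FPKM, so that the order of these 2 genes is not fixed by the data. Both lay above every other synthetase in each mouse, the highest value of Sars being 62.5 FPKM. Every other pair of neighbours in the order had ranges that overlapped over the 19 mice. Mars2 (0.71 to 2.04 FPKM) overlapped with Pars2 (1.44 to 5.31 FPKM), the proline enzyme of the mitochondrion.

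**Figure D1:**
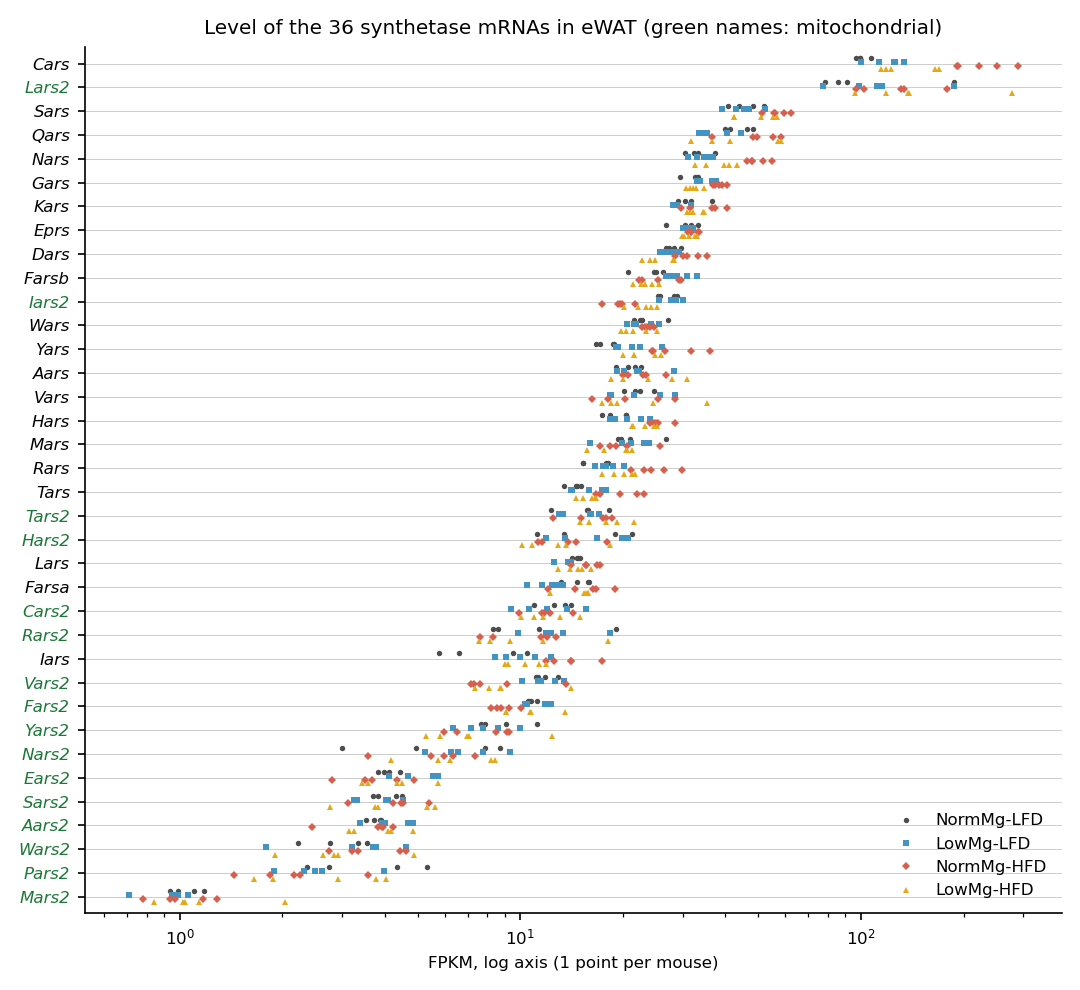
FPKM (log axis) of the 36 synthetase mRNAs, 1 point per mouse, ordered by the mean over the 4 diet groups; colours and shapes mark the diets and green names the mitochondrial enzymes. Cars and Lars2 stand above all others, Mars2 lies lowest near 1 FPKM, and NormMg-HFD points lie to the right for Cars, Nars, Yars, Rars and Iars.

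For 13 amino acids a cytosolic and a mitochondrial enzyme could be paired by symbol. Phenylalanine (Farsa and Farsb against Fars2), glutamate (Eprs against Ears2) and proline (Eprs against Pars2), whose cytosolic enzyme is made of 2 gene products or serves 2 amino acids, were left out of the pairs. The cytosolic mRNA had the higher mean in 11 of the 13 pairs, and the median ratio of cytosolic to mitochondrial FPKM was 2.82. It was higher in every one of the 19 mice in 8 pairs, with ratios from 2.13 for valine (Vars to Vars2) to 12.0 for cysteine (Cars to Cars2) and serine (Sars to Sars2) and 19.2 for methionine (Mars to Mars2). Threonine was even, with a ratio of 1.02 and Tars above Tars2 in 10 of 19 mice. The order was turned for isoleucine and leucine: Iars was below Iars2 in all 19 mice, with a ratio of 0.434, and Lars was below Lars2 in all 19 mice, with a ratio of 0.115.

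The spread between mice of a group was wider for the mitochondrial genes. Their coefficient of variation within a diet group had a median of 19.5%, against 9.52% for the cytosolic genes. In the comparisons of 2 groups the SE of the log2 fold change accordingly had a median of 0.16 for mitochondrial and 0.10 for cytosolic genes, so that a change of a given size was easier to detect among the cytosolic genes. Lars2 was the extreme: in the NormMg-LFD mice it stood at 187, 90.8, 85.5 and 78.2 FPKM, and in the LowMg-HFD mice at 139, 277.5, 96.2, 118 and 137 FPKM. A single mouse set the top of each of these groups, and Lars2 did not pass the test in any comparison.

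On the HFD at normal Mg2+, part of the cytosolic synthetase mRNAs were higher than on the LFD. Against the NormMg-LFD mice, 9 of 20 cytosolic genes rose and none fell, where 19.2% of all 13454 genes tested rose and 10.8% fell. Of the 16 mitochondrial genes none rose and 1, Iars2, fell, and 4 had an unadjusted p under 0.05, as 9 cytosolic genes did, where 40.2% of all genes had one. The groups did not overlap for 8 cytosolic genes that were higher and for 2 mitochondrial genes that were lower on the HFD, where 17.2% and 9.83% of all genes were so. The median log2 fold change was 0.16 over the cytosolic genes and -0.09 over the mitochondrial genes, beside 0.03 over all genes tested. These are counts from limma with an adjusted p under 0.05, and no test of the difference between the 2 classes was made. Of all genes called in this comparison 64.0% were higher, and 51.7% after median centring of the mice, under which the 9 cytosolic calls but that of Gars and Sars held.

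Cars changed most. It stood at 96.4, 99.5, 99.6 and 107 FPKM in the NormMg-LFD mice and at 251, 191, 288, 223 and 193 FPKM in the NormMg-HFD mice. Every NormMg-HFD mouse lay well above every NormMg-LFD mouse. The log2 fold change was 1.16 ± 0.14 (SE, limma adjusted p = 5.21e-06), the group means being 101 and 229 FPKM.

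Iars and Yars, the isoleucine and tyrosine enzymes, followed. Iars was at 5.78, 9.52, 10.5 and 6.59 FPKM on the NormMg-LFD and at 17.4, 14.1, 12.5, 14.1 and 11.9 FPKM on the NormMg-HFD, a log2 fold change of 0.74 ± 0.16 (limma, adjusted p = 0.00129). Yars was at 17.1, 18.9, 18.7 and 16.7 FPKM against 24.5, 26.7, 31.7, 36.1 and 24.3 FPKM, a log2 fold change of 0.64 ± 0.12 (limma, adjusted p = 0.000508). For both genes the groups did not overlap. Iars belongs to the multisynthetase complex and Yars acts outside it.

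Nars and Rars, the asparagine and arginine enzymes, rose by similar amounts. Nars was at 33.2, 37.3, 32.5 and 30.5 FPKM in the NormMg-LFD mice and at 48.0, 46.3, 51.8, 54.9 and 47.8 FPKM in the NormMg-HFD mice (log2 0.56 ± 0.09, limma adjusted p = 0.000103). Rars was at 15.3, 17.9, 18.1 and 15.3 FPKM against 24.1, 21.1, 29.9, 26.4 and 23.0 FPKM (log2 0.55 ± 0.10, limma adjusted p = 0.000465). Again no mouse of one group reached the other.

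The other 4 rises were smaller. Tars, for threonine, went from 14.5, 14.6, 13.4 and 15.1 FPKM to 22.0, 17.2, 23.1, 19.7 and 16.6 FPKM, a log2 fold change of 0.42 ± 0.10 (limma, adjusted p = 0.00481). Hars, for histidine, went from 20.5, 20.47, 17.3 and 18.3 FPKM to 24.8, 25.1, 28.4, 25.5 and 24.1 FPKM, a log2 fold change of 0.40 ± 0.09 (limma, adjusted p = 0.00281). These 2 genes did not overlap between the groups either.

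Gars, for glycine, and Sars, for serine, were the weakest. Gars was at 32.7, 33.0, 33.3 and 29.4 FPKM against 39.2, 37.4, 36.7, 40.4 and 38.3 FPKM (log2 0.25 ± 0.07, limma adjusted p = 0.00823), without overlap. Sars was at 48.3, 51.8, 40.6 and 43.9 FPKM against 55.7, 51.1, 55.8, 62.5 and 59.5 FPKM (log2 0.30 ± 0.11, limma adjusted p = 0.0397), and 1 NormMg-HFD mouse lay within the range of the NormMg-LFD mice. Both calls depended on the scale: after median centring of the mice the adjusted p was 0.0905 for Gars and 0.165 for Sars. The call of Sars was also lost without any 1 of NormMg-LFD replicates 2, 4 and 5 or NormMg-HFD replicates 1, 3, 4 and 5 (limma, adjusted p from 0.0523 to 0.122).

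The 11 cytosolic genes that did not pass had log2 fold changes from -0.11 for Mars to 0.17 for Dars. Among them, Eprs, the joint glutamate and proline enzyme, had group means from 30.5 to 32.2 FPKM over the 4 diets. Wars, the tryptophan enzyme and a known target of interferon gamma, had means of 23.5 FPKM on the NormMg-LFD and 23.6 FPKM on the NormMg-HFD (log2 0.01 ± 0.09, limma adjusted p = 0.929). Aars, the alanine enzyme with 2 promoter matches, had means of 21.0 and 22.8 FPKM (log2 0.10 ± 0.14, limma adjusted p = 0.607). On the same strand, 13.5% of the windows of Aars transcripts are shared with Exosc6. Of the 8 genes of the complex 2 rose, and of the 12 outside it 7 rose. By catalytic fold, 4 of 18 class I enzymes rose and 1 fell, and 5 of 17 class II enzymes rose, with Eprs, which joins an enzyme of each class, counted in neither, beside the 19.2% and 10.8% of all genes that rose and fell.

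Among the mitochondrial genes, Iars2 stood at 25.4, 28.3, 28.9 and 25.6 FPKM in the NormMg-LFD mice and at 19.6, 19.4, 17.4, 19.8 and 21.7 FPKM in the NormMg-HFD mice. It fell by 0.45 ± 0.08 on the log2 scale (limma, adjusted p = 0.000439), without overlap, so that the mRNAs of the cytosolic and mitochondrial isoleucine enzymes moved in opposite directions. Of the 50-base windows of Iars2 transcripts, 22.7% are shared with transcripts of the opposite strand, chiefly of Rab3gap2, and whether the libraries kept strand is not given in the sources used here. Rab3gap2 itself had means of 20.7 and 23.2 FPKM (log2 0.16 ± 0.11, limma adjusted p = 0.287). Fars2 did not overlap between the groups either (10.6 to 11.2 FPKM against 8.22 to 10.0 FPKM), but it did not pass the test (log2 -0.24 ± 0.11, limma adjusted p = 0.099). Vars2 (log2 -0.39 ± 0.17, limma adjusted p = 0.0971) and Pars2 (-0.51 ± 0.24, adjusted p = 0.119) had the other unadjusted p-values under 0.05. The remaining 12 mitochondrial genes had log2 fold changes from -0.19 for Hars2 to 0.28 for Lars2, among them Wars2 at 0.23 ± 0.21, Rars2 at -0.12 ± 0.25, Ears2 at -0.09 ± 0.15 and Nars2 at -0.02 ± 0.25.

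**Figure D2:**
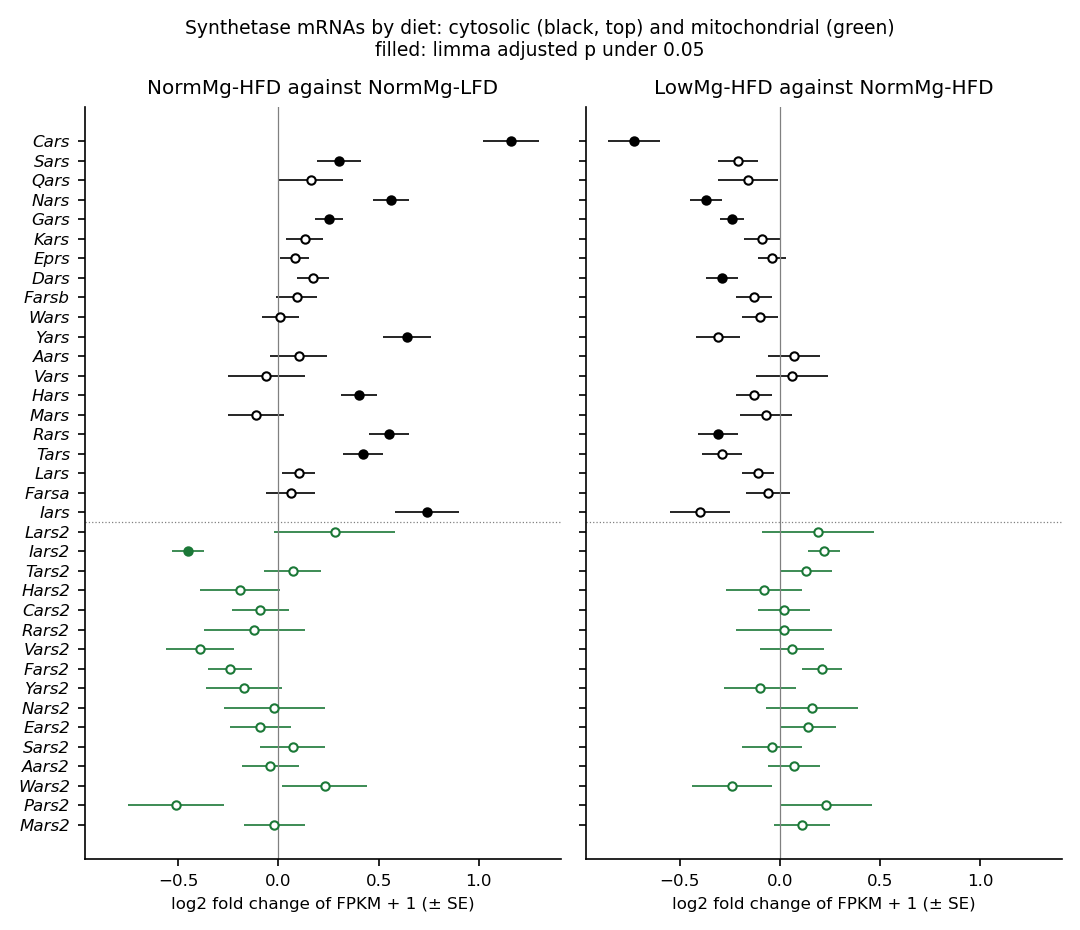
Log2 fold change of FPKM + 1 (± SE, limma) of the 36 mRNAs for NormMg-HFD against NormMg-LFD mice and for LowMg-HFD against NormMg-HFD mice, with cytosolic genes in black and mitochondrial genes in green; filled points had an adjusted p under 0.05. On the HFD at normal Mg2+ 9 cytosolic genes are filled to the right, with Cars at 1.16, and Iars2 to the left at -0.45; with low Mg2+ on the HFD 5 cytosolic genes are filled to the left.

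Low Mg2+ on the HFD lowered part of the same class. Both this comparison and the former one use the NormMg-HFD mice, so that a shift in those mice alone moves them in opposite directions. In the LowMg-HFD against the NormMg-HFD mice 5 of 20 cytosolic genes fell and none rose, where 8.95% of all genes tested fell and 3.53% rose. No mitochondrial gene of the 16 passed the test in limma, and 1 of them had an unadjusted p under 0.05, against 8 of the cytosolic genes and 27.1% of all genes. The groups did not overlap for 4 cytosolic genes, all lower, where 7.12% of all genes were lower and 2.79% higher in this way. The median log2 fold change was -0.15 over the cytosolic and 0.09 over the mitochondrial genes, beside -0.02 over all genes tested. Of all genes called here 28.3% were higher, and 40.2% after quantile normalization, under which 2 cytosolic genes, Cars and Nars, kept their calls.

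Cars again changed most, from 251, 191, 288, 223 and 193 FPKM in the NormMg-HFD mice to 169, 165, 123, 114 and 119 FPKM in the LowMg-HFD mice. The 2 groups did not overlap, and the log2 fold change was -0.73 ± 0.13 (limma, adjusted p = 0.00285). Nars fell from a mean of 49.7 FPKM (46.3 to 54.9) to 39.6, 43.3, 32.5, 35.1 and 41.1 FPKM, a log2 fold change of -0.37 ± 0.08 (limma, adjusted p = 0.00789). Both calls held under all 29 alternatives that were run.

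Gars, Dars (for aspartate) and Rars fell by less. Gars fell from a mean of 38.4 FPKM to 32.1, 34.7, 31.5, 32.8 and 30.6 FPKM (log2 -0.24 ± 0.06, limma adjusted p = 0.0178). Dars went from 30.9, 28.4, 33.4, 35.2 and 30.01 FPKM to 22.7, 24.9, 28.3, 28.1 and 24.1 FPKM (log2 -0.29 ± 0.08, limma adjusted p = 0.0189). For these 2 genes the groups did not overlap.

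The call of Gars was lost after median centring (limma, adjusted p = 0.0564), after quantile normalization (0.0674), without NormMg-HFD replicate 4 (0.0518) and without LowMg-HFD replicate 5 (0.0523). The call of Dars was lost after quantile normalization (limma, adjusted p = 0.0581), in the fit of these 2 groups alone (0.0586) and without NormMg-HFD replicate 3 (0.0559) or 4 (0.0599) or LowMg-HFD replicate 5 (0.0531). Rars lay at the threshold: its log2 fold change was -0.31 ± 0.10 (limma, adjusted p = 0.0448), with LowMg-HFD mice at 18.8, 21.3, 17.4, 21.8 and 20.1 FPKM that overlapped with the NormMg-HFD mice, and the call was lost in 17 of 29 alternatives. These include the fits without NormMg-HFD replicate 1, 3 or 4, LowMg-HFD replicate 1, 3 or 5, NormMg-LFD replicate 2 or 3, or LowMg-LFD replicate 2, 3 or 4, with an adjusted p of up to 0.137. Iars (log2 -0.40 ± 0.15, limma adjusted p = 0.0828), Yars (-0.31 ± 0.11, adjusted p = 0.0846) and Tars (-0.29 ± 0.10, adjusted p = 0.0589) had log2 differences of the same size and did not pass. Tars passed with a filter at 8 FPKM (adjusted p = 0.0459) and without NormMg-HFD replicate 2 (0.0423) or 5 (0.0273).

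Dars was the only one of the 5 that had not passed on the HFD at normal Mg2+ (log2 0.17 ± 0.08, limma adjusted p = 0.138). Of the genes that had risen there, Hars (log2 -0.13 ± 0.09, limma adjusted p = 0.342) and Sars (-0.21 ± 0.10, adjusted p = 0.19) were among those that did not pass with low Mg2+. Iars2, which had fallen with fat, was at 24.1, 20.1, 25.2, 22.2 and 23.3 FPKM in the LowMg-HFD mice. That is a log2 difference of 0.22 ± 0.08 from the NormMg-HFD mice (limma, adjusted p = 0.0733), and it passed only without NormMg-HFD replicate 5 (adjusted p = 0.0445) or LowMg-HFD replicate 2 (0.0339).

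On the LFD, low Mg2+ changed no synthetase in the limma fit, and no gene at all of the 13454 tested (0%). At an unadjusted p under 0.05 there were 3 cytosolic and 0 mitochondrial genes, where 6.32% of all genes had such a p. Without overlap between the groups, 2 cytosolic genes, Farsb and Yars, were higher and 1, Lars, was lower, where 0.372% and 1.29% of all genes were. The 3 genes by unadjusted p were Farsb (log2 0.28 ± 0.10, limma adjusted p = 0.78), Yars (0.26 ± 0.12, adjusted p = 0.789) and Farsa (-0.28 ± 0.12, adjusted p = 0.789). Farsa and Farsb encode the 2 subunits of the phenylalanine enzyme, and their differences had opposite signs: Farsb went from 24.7, 26.3, 20.7 and 25.0 FPKM to 28.9, 26.8, 30.9, 33.0 and 27.9 FPKM, while Farsa went from 13.1, 16.0, 15.8 and 14.7 FPKM to 13.4, 12.4, 12.9, 11.6 and 10.5 FPKM. Cars had means of 101 FPKM on the NormMg-LFD and 119 FPKM on the LowMg-LFD (log2 0.24 ± 0.14, limma adjusted p = 0.825).

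On low Mg2+, the HFD was not linked to a rise of any synthetase. In the LowMg-HFD against the LowMg-LFD mice 1 cytosolic gene, Farsb, and 1 mitochondrial gene, Iars2, fell and none rose, where 2.21% of all genes tested fell and 8.24% rose. Farsb fell to 22.6, 21.4, 23.2, 24.3 and 25.5 FPKM (log2 -0.32 ± 0.09, limma adjusted p = 0.0378), from the LowMg-LFD values given above. Iars2 fell from 29.97, 28.1, 25.6, 27.6 and 28.6 FPKM to the LowMg-HFD values given above (log2 -0.27 ± 0.08, limma adjusted p = 0.0317). The groups did not overlap for either gene, where 1.59% of all genes were lower and 5.48% higher without overlap. At an unadjusted p under 0.05 there were 2 cytosolic genes, the other being Farsa (log2 0.28 ± 0.11, limma adjusted p = 0.121), and 1 mitochondrial gene, where 24.6% of all genes had such a p.

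Neither of these 2 calls was firm. Farsb lost its call in 9 of 29 alternatives, among them without LowMg-HFD replicate 1, 2 or 3 or LowMg-LFD replicate 1, 3 or 4 (limma, adjusted p from 0.0549 to 0.103), and 7.27% of the windows of its transcripts are shared with the opposite strand, all with Sgpp2. Iars2 lost its call in 8 of 29, among them without LowMg-HFD replicate 2 or 4 or LowMg-LFD replicate 1, 2 or 5 (limma, adjusted p from 0.0508 to 0.0996). Median centring moved the median log2 fold change of all genes in this comparison from 0.10 to -0.04 and the share of higher genes among all genes called from 78.9% to 44.9%. Centring also added Gars to the genes called lower (log2 -0.25, limma adjusted p = 0.0432) and moved the difference in the mean level of the cytosolic genes from 0.05 to -0.10 (log2), so that its sign is not settled.

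Whether low Mg2+ acted differently on the 2 fat levels was tested for each gene by the interaction. Cars was the only synthetase to pass, of 48 genes that passed among all tested (0.357%, or 0.186% with a negative and 0.171% with a positive sign). The change of Cars with low Mg2+ was lower on the HFD than on the LFD by a log2 of 0.97 (-0.97 ± 0.19, limma adjusted p = 0.0478). It was negative in all 28 alternatives run for it, from -1.05 to -0.88 where 1 mouse was left out, but the call was lost in 17 of them. It was lost without any 1 of the 4 NormMg-LFD mice, NormMg-HFD replicates 1 to 4, LowMg-HFD replicates 3 and 5 or LowMg-LFD replicates 2, 4 and 5, with an adjusted p from 0.0568 to 0.0915, and 0.0951 without both NormMg-LFD replicate 3 and LowMg-HFD replicate 4.

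At an unadjusted p under 0.05, 9 of 20 cytosolic and 0 of 16 mitochondrial genes showed an interaction, where 17.9% of all genes did. All 9 had a negative sign: besides Cars they were Iars (log2 -0.72 ± 0.21, limma adjusted p = 0.0933), Yars (-0.56 ± 0.17, adjusted p = 0.0905), Rars, Nars, Tars, Farsb, Gars (-0.36 ± 0.09, adjusted p = 0.0699) and Dars. Iars passed after median centring (limma, adjusted p = 0.0491) and quantile normalization (0.0446), and Nars and Gars passed without LowMg-HFD replicate 2 (0.0496 and 0.0408). The median interaction was -0.22 over the cytosolic and 0.06 over the mitochondrial genes, beside 0.05 over all genes tested. Of the 48 genes called 47.9% were higher, and 26.8% of those called after median centring.

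**Figure D3:**
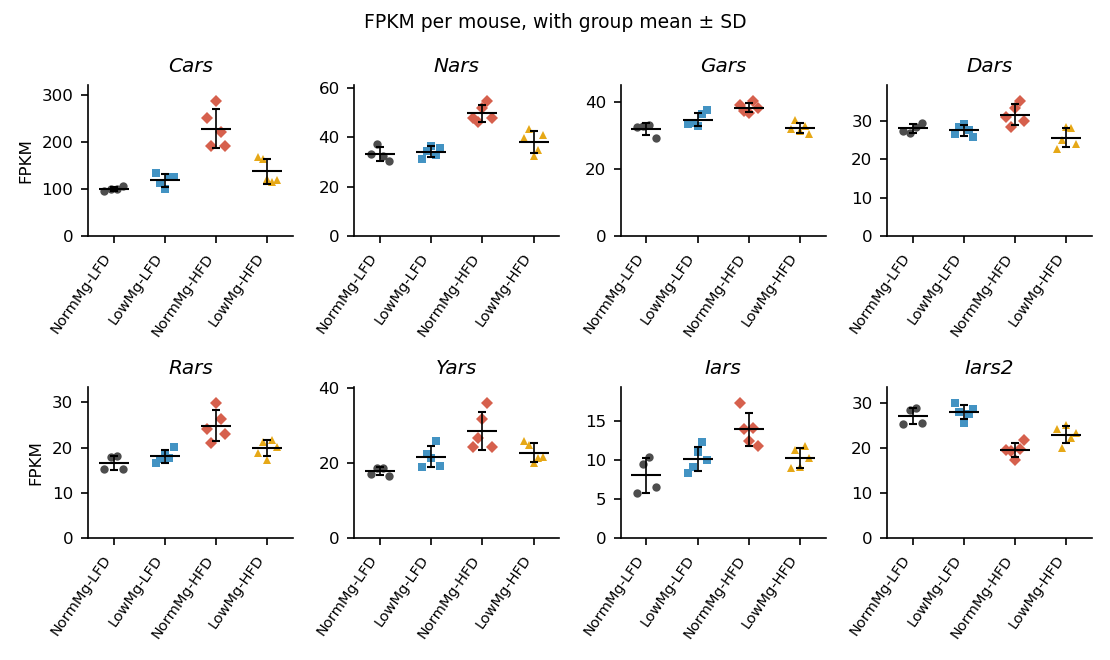
FPKM of 8 synthetase mRNAs in each mouse of the 4 diet groups, with the group mean and SD as bars; each axis starts at 0. Cars is highest in all 5 NormMg-HFD mice (191 to 288 FPKM), the LowMg-HFD mice lie between these and the LFD mice or level with the latter, and Iars2 has its lowest mean in the NormMg-HFD mice (17.4 to 21.7 FPKM).

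The mean log2(FPKM + 1) of each class shows the same in single values. Over the 20 cytosolic genes it was 4.66 ± 0.05 (SD, n = 4) on the NormMg-LFD, 4.70 ± 0.04 (n = 5) on the LowMg-LFD, 4.95 ± 0.10 (n = 5) on the NormMg-HFD and 4.75 ± 0.05 (n = 5) on the LowMg-HFD. Each NormMg-HFD mouse (4.82 to 5.07) lay above each mouse of the other groups, the highest of which was a LowMg-HFD mouse at 4.81. Over the 16 mitochondrial genes it was 3.28 ± 0.06, 3.30 ± 0.06, 3.17 ± 0.04 and 3.24 ± 0.08 in the same order. The mitochondrial means of the NormMg-HFD mice (3.11 to 3.21) overlapped with those of the LowMg-HFD mice (3.14 to 3.35), and by a narrow margin with those of the NormMg-LFD mice (3.2 to 3.34).

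The number of log2 units between the 2 classes was 1.39 ± 0.03 on the NormMg-LFD, 1.40 ± 0.08 on the LowMg-LFD, 1.78 ± 0.13 on the NormMg-HFD and 1.51 ± 0.08 on the LowMg-HFD. This distance compares genes within a mouse. It was between 1.61 and 1.96 in the NormMg-HFD mice and between 1.42 and 1.62 in the LowMg-HFD mice, and no LFD mouse exceeded 1.48. No p is given for these scores, because the members were chosen with results of these data known.

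Cell type markers moved with the diets as well. Macrophage markers (11 genes, among them Adgre1, Cd68 and Itgax) summed to between 592.6 and 738.1 FPKM on the NormMg-LFD, 470.2 and 869.5 FPKM on the LowMg-LFD, 3211.9 and 5073.4 FPKM on the NormMg-HFD and 865.0 and 2862.4 FPKM on the LowMg-HFD. All 11 rose on the HFD at normal Mg2+ and all 11 fell with low Mg2+ on the HFD (limma), the same directions as the cytosolic synthetases that passed. All 5 proliferation markers did so too. Of all genes tested 19.2% rose and 10.8% fell on the HFD at normal Mg2+, and 3.53% rose and 8.95% fell with low Mg2+ on the HFD. On low Mg2+ the HFD raised 9 of the 11 macrophage and 4 of the 5 proliferation markers, where of the 20 cytosolic synthetases none rose and 1 fell. In that comparison 8.24% of all genes rose and 2.21% fell. Of the 10 adipocyte markers 7 fell and Lep rose on the HFD at normal Mg2+, while 6 rose with low Mg2+ on the HFD. Of 5 mesothelial markers 4 fell on the HFD at normal Mg2+, with a median log2 fold change of -1.27, and with low Mg2+ on the HFD none passed (median 0.65). Of the 8 epididymis and testis markers 4 were tested and none passed in either comparison, with medians of -3.46 on the HFD at normal Mg2+, where all 4 had an unadjusted p under 0.05, and 2.17 with low Mg2+ on the HFD. In the LowMg-HFD group replicate 4 alone had a high testis marker sum (2909.3 FPKM), against 3.0 to 33.7 FPKM in the other mice of the group. The part of the marked cell types in the synthetase values was not tested.

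Within the LowMg-HFD group, Cars was highest in replicates 1 and 2, at 169 and 165 FPKM, which also had the highest macrophage marker sums, 2862.4 and 2421.2 FPKM. The other 3 mice of the group had Cars between 114 and 123 FPKM and marker sums between 865.0 and 1276.6 FPKM. Within the NormMg-HFD group Cars was highest in replicates 3 and 1, at 288 and 251 FPKM, again the mice with the highest sums, 5073.4 and 4527.9 FPKM. The lowest 2 values, 191 and 193 FPKM, were in the mice with the lowest sums, 3211.9 and 3237.9 FPKM. The mean over all 20 cytosolic genes was likewise highest in replicate 3 of the NormMg-HFD group (5.07) and lowest in replicates 5 and 2 (4.82 and 4.89). Within the LowMg-HFD group it was highest in replicate 4 (4.81), the library with testis markers, which had the lowest macrophage sum, and it was also 4.81 in replicate 2. In the LFD groups Cars did not follow the sums: in the LowMg-LFD group it was highest, at 134 FPKM, in replicate 1, which had the lowest sum (470.2 FPKM), and in the NormMg-LFD group it was highest, at 107 FPKM, in replicate 5, with the second highest sum of the 4 (684.2 FPKM).

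**Figure D4:**
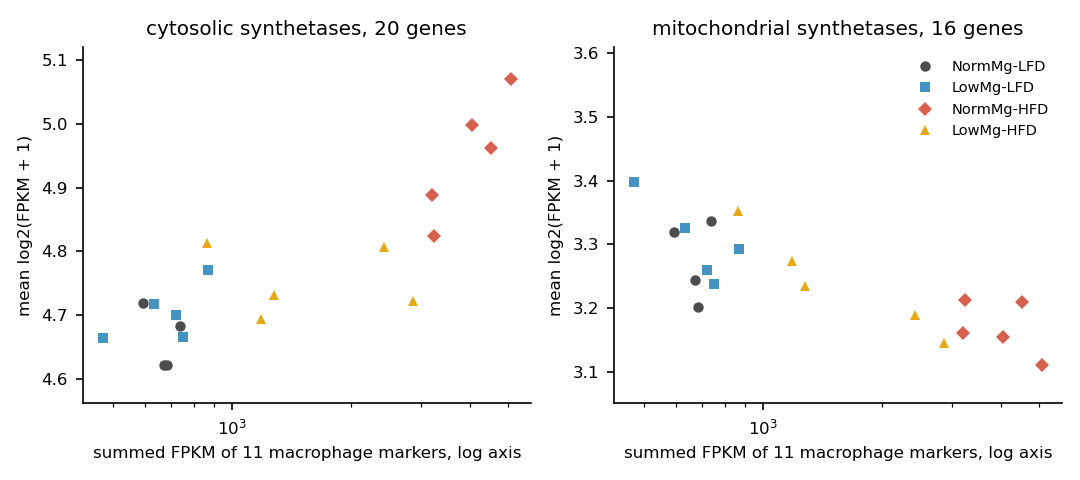
Mean log2(FPKM + 1) of the 20 cytosolic and of the 16 mitochondrial synthetases against the summed FPKM (log axis) of 11 macrophage markers, 1 point per mouse, with both vertical axes spanning the same number of log2 units and not starting at 0. The 5 NormMg-HFD mice, with sums from 3211.9 FPKM, have the highest cytosolic means (4.82 to 5.07), and their mitochondrial means (3.11 to 3.21) lie at the low end.

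The genes that work beside the synthetases were read from lists. Of the 3 scaffold genes of the multisynthetase complex, 1 rose on the HFD at normal Mg2+, where 19.2% of all genes did. This was Eef1e1, which went from a mean of 8.45 to 13.4 FPKM without overlap (log2 0.64 ± 0.16, limma adjusted p = 0.00459). Aimp1 (0.25 ± 0.11, adjusted p = 0.0825), whose groups did not overlap either, and Aimp2 (0.26 ± 0.15, adjusted p = 0.227) did not pass. With low Mg2+ on the HFD the log2 differences of Aimp1, Aimp2 and Eef1e1 were -0.19, -0.27 and -0.24, and none passed. Of the 4 partners of mitochondrial charging (Qrsl1, Gatb, Gatc and the formyltransferase gene Mtfmt) none passed in any of the 5 comparisons in limma. Gatb had the largest log2 difference with the HFD, -0.42 ± 0.17 at normal Mg2+ (adjusted p = 0.0604), and it was the 1 gene of the 4 at an unadjusted p under 0.05 there, where 40.2% of all genes had one.

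Other steps of tRNA supply were counted in the same way, on the HFD at normal Mg2+ against the 19.2% of all genes that rose and the 10.8% that fell, shares from which these short lists are not set apart here. Of 20 genes for transcription by RNA polymerase III, which makes tRNAs, 3 rose and 1 fell on the HFD at normal Mg2+: Polr3g (log2 0.83 ± 0.22, limma adjusted p = 0.0064), Polr3d (0.49 ± 0.14, adjusted p = 0.0122) and Gtf3c6 (0.50 ± 0.19, adjusted p = 0.0491) rose, and Polr3gl, which encodes the alternative form of the Polr3g subunit, fell (-0.41 ± 0.12, adjusted p = 0.0179). With low Mg2+ on the HFD only Polr3d of the 20 passed, and fell (-0.41 ± 0.13, adjusted p = 0.0454), where 8.95% of all genes fell and 3.53% rose. Of 9 genes of tRNA maturation and export, Xpot, the tRNA exporter, rose on the HFD at normal Mg2+ (0.27 ± 0.09, adjusted p = 0.0259). Of 4 genes that clear mischarged tRNA, Prorsd1 rose (0.34 ± 0.12, adjusted p = 0.0455) and Dtd1 fell (-0.49 ± 0.16, adjusted p = 0.026) in the same comparison.

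The integrated stress response list held genes called in both directions. Of its 30 genes, 9 rose and 5 fell on the HFD at normal Mg2+, where 19.2% and 10.8% of all genes did, and the median log2 fold change was 0.24, beside 0.03 over all genes. Atf4 itself, named here after its values were seen, was among those that rose (log2 0.47 ± 0.14, limma adjusted p = 0.018, with means of 45 and 61.6 FPKM). The 4 genes with the smallest adjusted p were Gpt2, an alanine aminotransferase (-1.41 ± 0.18, adjusted p = 1.06e-05), the secreted factors Gdf15 (1.88 ± 0.25, adjusted p = 1.63e-05) and Stc2 (-1.41 ± 0.19, adjusted p = 2.34e-05), and Asns, which makes asparagine (-0.95 ± 0.17, adjusted p = 0.000353). Asns thus fell, from 29.3 to 14.9 FPKM in the mean, in the comparison in which Nars, which uses asparagine, rose.

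With low Mg2+ on the HFD 3 of the 30 genes of the stress list rose and 1 fell, where 3.53% and 8.95% of all genes did. Stc2 (log2 0.78 ± 0.18, limma adjusted p = 0.00947), Asns (0.61 ± 0.16, adjusted p = 0.0178) and Gpt2 (0.64 ± 0.17, adjusted p = 0.0186) rose, and Gdf15 fell (-1.43 ± 0.23, adjusted p = 0.00235). For the HFD at low Mg2+, where no synthetase rose, 5 of the 30 rose and 2 fell (8.24% and 2.21% of all genes), and 24 had a positive log2 fold change (median 0.19). None of the 4 genes for eIF2 alpha kinases passed in any comparison in limma. At an unadjusted p under 0.05 there was 1 of the 4 in each comparison but that of low Mg2+ on the LFD, where there were 0, against shares of all genes from 6.32% to 40.2% over the comparisons.

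Of 12 interferon gamma response genes, 11 were tested, of which 3 rose and 0 fell on the HFD at normal Mg2+, where 19.2% and 10.8% of all genes did. Psmb8 (log2 0.55 ± 0.15, limma adjusted p = 0.00724) and Gbp2 (0.38 ± 0.14, adjusted p = 0.0458) were among the 3. With low Mg2+ on the HFD 1 of the 11, Cxcl10, fell (-1.01 ± 0.31, limma adjusted p = 0.0387) and 0 rose, where 8.95% of all genes fell and 3.53% rose. Wars, the synthetase that interferon gamma is known to induce, passed in none of the 5 comparisons. Its mean was between 22.0 and 23.6 FPKM in all 4 diet groups.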

How the data were processed

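RNA-seq of eWAT of 19 mice was read from the deposited table of FPKM values per gene. The authors sequenced total RNA as 50-base single-end reads, mapped them with HISAT and Bowtie2 to GRCm38 and made the FPKM values with RSEM 1.2.31. The read counts and percent of mapped reads that were deposited per library were 12986441 to 13027028 reads and 86.12% to 90.41% per mouse. Depth was thus alike between the mice. How far read sampling or the number of mice limits the precision was not tested.

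Of the 24237 genes used, 13454 with a mean FPKM above 1 in a group, and above 1 in at least 4 of its mice, were kept. This filter is lower than the mean level of 8 that the study's methods give without a unit (tried as FPKM). On log2(FPKM + 1), 4 group means were estimated over all 19 mice with limma 3.58.1 (R 4.3.3), the prior variance following the mean level. Adjusted p-values (Benjamini-Hochberg) cover all 13454 genes, with a threshold of 0.05. Fold changes on this scale understate those of low genes, and the two-sided p-values measure the spread between single mice. The code was checked on simulated data.

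Members and lists were chosen with earlier results of these data known. All members were counted, with values per mouse or as group ranges for those called or at the ends of the level order. Scaffold and charging partner genes were all named, and of other lists up to 4 genes per comparison with the smallest adjusted p among those called. Some genes that this rule would name are not reported here. Promoters came from RefSeq (GRCm38.p6), and shared 50-base windows from GENCODE M21 transcripts. Alternatives were another pseudocount, filter, scaling, variance model or set of mice, and a replicate block. Figures were drawn with matplotlib 3.10.9.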

Additional observations from a re-analysis of the deposited data

Results flagged for a closer look

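In 10 of 152 sets of 1 gene or class in 1 diet group, the highest or lowest mouse stood apart from the rest of its group by Dixon's criterion, which by chance alone marks about 1 in 20. Among cytosolic genes these were Kars in LowMg-LFD replicate 5 (highest, 31.61 FPKM), Lars in LowMg-LFD replicate 1 (lowest, 12.53 FPKM), Farsa in LowMg-HFD replicate 5 (lowest, 12.21 FPKM) and Gars in NormMg-LFD replicate 5 (lowest, 29.4 FPKM).

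Among mitochondrial genes they were Aars2 in NormMg-HFD replicate 4 (lowest, 2.44 FPKM), Lars2 in NormMg-LFD replicate 2 (highest, 187.04 FPKM) and in LowMg-HFD replicate 2 (highest, 277.5 FPKM), and Yars2 in LowMg-HFD replicate 5 (highest, 12.39 FPKM). Mars2 (2.04 FPKM) and Vars2 (14.07 FPKM) were highest in LowMg-HFD replicate 4, the library with testis markers. The part of those markers in the 2 values was not tested.

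Cars responded differently to low Mg2+ on the HFD and on the LFD by the test of the interaction (log2 -0.97; limma, adjusted p = 0.0478), with the limits given above.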

How the results depend on the processing

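Of the values recomputed under each alternative none changed its sign while called. On the HFD at normal Mg2+ the calls of Cars, Nars, Rars, Yars, Iars, Hars, Tars and Iars2 held in all 29 alternatives. The 5 cytosolic calls of low Mg2+ on the HFD became 3 after median centring, 2 after quantile normalization and 3 when only the groups compared were used, 6 with a filter at 8 FPKM, and 2 to 6 with 1 mouse left out (2 without NormMg-HFD replicate 4 or LowMg-HFD replicate 5). The mitochondrial count there was 0 to 1 with 1 mouse left out. For the HFD at normal Mg2+ the cytosolic count was 7 after median centring and 7 after quantile normalization. With 1 mouse left out it was 8 to 9 and the mitochondrial count 1 to 2 (2 without NormMg-HFD replicate 4 or LowMg-HFD replicate 4). The mitochondrial count was 3 after median centring, with Vars2 (adjusted p = 0.0397) and Fars2 (0.0401) added, 2 after quantile normalization, and 3 without LowMg-HFD replicate 4 and with genes above 3 on the log2 scale. For the HFD at low Mg2+ the cytosolic count of 1 became 0 without a filter and with only the groups compared, 2 after median centring and 2 after quantile normalization. The mitochondrial count of 1 became 0 with only the groups compared, 2 without LowMg-HFD replicate 4 and with genes above 3 on the log2 scale, and 0 without both NormMg-LFD replicate 3 and LowMg-HFD replicate 4, an alternative chosen after seeing the data. Each was 0 to 1 with 1 mouse left out. The cytosolic count of 1 for the interaction became 0 without a filter, 0 without the intensity trend, 0 without both those libraries, 2 after median centring and 2 after quantile normalization, and was 0 to 3 with 1 mouse left out.

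The replicate numbers did not pair the mice: the deviations of same-numbered mice correlated by -0.141 to 0.383 (median 0.00221 over 27 pairs), and 5 of 19 mice correlated best with their own number. With the replicate number as a block the cytosolic count was 9 and the mitochondrial 1 for the HFD at normal Mg2+, the cytosolic count 4 for low Mg2+ on the HFD, and the counts were 0 and 0 for the HFD at low Mg2+ and 0 for the interaction.

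The difference in mean log2 level of the cytosolic genes moved, for low Mg2+ on the LFD, from 0.04 to 0.14 after centring and 0.11 after quantile normalization, and that of the mitochondrial genes from 0.03 to 0.12 and 0.13. For the HFD at normal Mg2+ the cytosolic difference was 0.18 after quantile normalization (0.29 without), and the mitochondrial one -0.18 after centring and -0.17 after quantile normalization (-0.11 without). For the HFD at low Mg2+ the values were -0.10 and -0.07 for the cytosolic and -0.21 and -0.21 for the mitochondrial genes. The cause of these changes was not tested.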
